A study of Mus musculus with 4 samples.

Results

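The proteasome is encoded by genes whose mouse symbols run from Psma to Psmg followed by a number, and 48 genes of the RefSeq table carry such a symbol. Of the 23462 genes that could be matched to a probe of the array through a transcript accession, 47 belonged to this set, and the missing member was Psme2. Of the 47, 46 were well above background on all 4 arrays. The exception, Psmb11, which encodes the catalytic subunit of the thymus, was not well above background on any array. The members were divided by role into 34 constitutive subunits, the 3 immunoproteasome catalytic subunits Psmb8, Psmb9 and Psmb10, a pair of tissue-restricted subunits, 4 activators, 1 inhibitor and 4 chaperones of assembly.

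Liver total RNA was hybridised to 4 one-colour Agilent arrays, 1 for each combination of genotype and diet. All mice were male, on a C57BL/6 background and 24 weeks old, and all carried the floxed Lpiat1 allele. F/F mice (Lpiat1F/F) had no Cre, and LKO mice (Alb-Cre; Lpiat1F/F) also carried Cre under the albumin promoter, which acts in hepatocytes, so that the other cells of the liver kept the gene. From 6 weeks of age the mice ate standard chow or a diet rich in fat (HFD) over 18 weeks. The sources used here do not state which of the study's mice gave the RNA on each array, or if it was pooled. Because each condition had 1 array, no difference was tested, none has a replicate check, and a genotype named with a diet (such as LKO HFD) stands for a single array.

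The proteasome degrades proteins that carry a ubiquitin chain. Its 20S core is a barrel of alpha and beta rings with the proteolytic sites inside, and the 19S cap recognises, unfolds and feeds in the substrate. Interferon gamma induces replacement of the catalytic subunits Psmb5, Psmb6 and Psmb7 by Psmb8, Psmb9 and Psmb10, respectively, in newly assembled particles, and this immunoproteasome, abundant in leukocytes and inducible in hepatocytes, shapes the peptides shown on MHC class I. The present comparison asked how the immunoproteasome subunits stood against the constitutive ones when liver Lpiat1 was deleted and when the diet was changed.

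Promoter windows from RefSeq (build GRCm38.p6, 300 bases that end shortly after the annotated start) were at hand for 40 of the 48 members, in 43 windows. Windows of 5 members are shown, because the results turn on the exchange of catalytic subunits and on their activator. The Psmb8 window is chr17:34197945-34198244, plus strand, with its gamma-activated site in capitals. The Psmb9 window is chr17:34187281-34187580, minus strand, without capitals. The Psmb5 window is chr14:54617946-54618245, minus strand, and the Psmb6 window is chr11:70525107-70525406, plus strand, both with the core of the antioxidant response element in capitals. The Psme1 window is chr14:55578244-55578543, plus strand, with the core of the interferon-stimulated response element in capitals.
Psmb8: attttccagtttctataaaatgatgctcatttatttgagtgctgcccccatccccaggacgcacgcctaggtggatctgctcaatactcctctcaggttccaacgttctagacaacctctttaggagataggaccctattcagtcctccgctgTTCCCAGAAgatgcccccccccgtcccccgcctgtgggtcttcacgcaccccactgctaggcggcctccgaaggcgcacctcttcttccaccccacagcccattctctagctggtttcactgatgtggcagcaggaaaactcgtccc
Psmb9: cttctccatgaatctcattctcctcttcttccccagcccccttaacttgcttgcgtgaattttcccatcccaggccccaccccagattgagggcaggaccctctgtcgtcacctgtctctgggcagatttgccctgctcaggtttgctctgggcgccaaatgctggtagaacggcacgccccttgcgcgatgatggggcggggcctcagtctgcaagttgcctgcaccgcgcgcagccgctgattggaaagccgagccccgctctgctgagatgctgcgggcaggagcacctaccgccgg
Psmb5: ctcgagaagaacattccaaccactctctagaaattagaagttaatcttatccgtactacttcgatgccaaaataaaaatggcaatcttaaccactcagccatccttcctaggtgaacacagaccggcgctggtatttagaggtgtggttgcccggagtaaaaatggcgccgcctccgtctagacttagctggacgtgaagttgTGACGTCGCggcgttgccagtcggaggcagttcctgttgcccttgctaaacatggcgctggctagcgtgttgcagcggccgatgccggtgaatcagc
Psmb6: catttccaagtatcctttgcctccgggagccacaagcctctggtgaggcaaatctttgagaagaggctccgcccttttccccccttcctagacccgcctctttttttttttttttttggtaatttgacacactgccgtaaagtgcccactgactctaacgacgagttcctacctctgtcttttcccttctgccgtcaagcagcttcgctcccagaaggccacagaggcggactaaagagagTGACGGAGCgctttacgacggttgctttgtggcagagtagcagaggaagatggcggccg
Psme1: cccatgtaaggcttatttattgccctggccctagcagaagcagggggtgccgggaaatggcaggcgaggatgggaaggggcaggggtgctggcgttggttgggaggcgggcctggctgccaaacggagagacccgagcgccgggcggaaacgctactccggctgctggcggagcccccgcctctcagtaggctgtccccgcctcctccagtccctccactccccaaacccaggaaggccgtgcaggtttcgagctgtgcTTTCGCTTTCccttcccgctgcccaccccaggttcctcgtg

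Motifs were searched as letters on both strands, with N for any base and overlapping matches allowed. The gamma-activated site (TTCNNNGAA), an element of interferon-responsive promoters, was present in 3 of the 43 member windows (Psmb8, Psmd2 and Psmg1) and in 8.3% of all 32851 windows. The core of the interferon-stimulated response element (GAAANNGAAA) was present in 5 member windows (Psmb3, Psmd4, Psmd9, Psme1 and Psmg4) and in 3.44% of all windows, and in none of the windows of Psmb8, Psmb9 and Psmb10. The core of the antioxidant response element (TGACNNNGC), bound by the NFE2L1 and NFE2L2 factors, was present in 6 member windows (Psmb5, Psmb6, Psmc6, Psmd9, Psmd12 and Psme4), or 14% against 12.4% of all windows. A GC box (GGGCGG) was present in 55.8% of the member windows and in 35.7% of all windows. These matches describe letters in a window and are no evidence of binding.

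Psmb9 lies back to back with Tap1, the peptide transporter of MHC class I presentation, and the windows of both genes share 275 bases on opposite strands. Psmb8 is the next gene after Tap1, and Tap2 follows Psmb8. This group lies in the MHC class II region, whereas Psmb10 lies between Ctrl and Lcat on another chromosome.

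The arrays were alike in how much of the probe set was measurable. The share of spots well above background was 54.2% (F/F) and 53.0% (LKO) on chow and 54.6% (F/F) and 57.0% (LKO) on HFD, and no spot was saturated. The 75th percentile of the signals, by which each array was scaled, was 222, 213, 263 and 296 (F/F and LKO on chow, then F/F and LKO on HFD), so that equal signals are lower relative levels on the HFD arrays. Levels are given as relative signal, the signal of the brightest probe of a gene divided by that percentile, and differences as log2 of a ratio of relative signals. The SD of the difference between replicate spots of a probe on the same array was 0.09 (log2). This technical spread leaves out differences between mice, between RNA preparations and between arrays. Mboat7, the gene that encodes LPIAT1, was lower in LKO by 0.30 on chow and by 0.27 on HFD (log2), as given by 1 probe whose position relative to the deleted exons was not determined. All 6 hepatocyte markers (Alb, Ttr, Apoa1, Tat, Cps1 and Ass1) were well above background on all arrays. With LKO against F/F on HFD, the medians were 0.68 for pan-leukocyte markers and 1.94 for pancreatic enzymes (5 of 5 at least 1.5-fold higher), and -0.98 for red cell genes. In a bulk sample, fewer cells of a type and less RNA per cell cannot be told apart.

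Few proteasome genes passed a 1.5-fold difference. For LKO against F/F on chow, 0 of 46 members were at least 1.5-fold higher and 0 lower, where 3.52% and 3.46% of all 14981 genes with a value were. For LKO against F/F on HFD, 0 of 46 were higher (8.07% of all genes) and 1, Psme3, was lower (6.08% of all genes). With HFD against chow in F/F, 1 member was higher (Psmb9, against 13.2% of all genes) and 1 lower (Psme3, against 9.6%). With HFD against chow in LKO, 2 members were higher (Psmb8 and Psmb9, against 15.4% of all genes) and 1 lower (Psme3, against 11.7%). The members past this limit were thus no more frequent than in the background in any of the 8 counts, and the description that follows is mostly of smaller differences shared by many members.

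The 34 constitutive subunits of the 20S core and the 19S cap were mostly lower in LKO than in F/F liver on HFD. The median difference was -0.26 (log2), with 32 of 34 lower, and 30 of them were lower by more than the SD between spots of the same array. Over all 15528 genes the median was -0.03, with 54.1% lower and 6453 genes lower by more than that SD. On chow the median of the constitutive subunits was -0.05, with 22 of 34 lower. Over all genes on chow it was 0.00, with 49.3% lower. The relative signal was lowest on the LKO HFD array for 31 of the 34 and highest on F/F chow for 21. Such orders were not counted over all genes, and they depend on the scaling. Before scaling, Psma2 for example had signals of 14938 (F/F) and 13703 (LKO) on chow and 16237 (F/F) and 16318 (LKO) on HFD. The members of a complex are not replicates of a condition, and all these values come from the same 4 arrays.

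Scaling bears on this result. Without any scaling of the arrays, which moved the median of all genes by 0.17 in LKO against F/F on HFD, by 0.25 in HFD against chow in F/F and by 0.46 in LKO, the median of the constitutive subunits in LKO on HFD was -0.09 and that of HFD against chow turned to 0.15 in F/F and 0.19 in LKO. Relative to the median of all genes the subunits stood at -0.23 in LKO on HFD. A factor per array shifts both medians alike, so that this distance was by construction nearly the same without scaling. It was -0.17 with quantile normalization and -0.14 without a filter on background. Genes as bright as the subunits were also lower. The 5871 genes between the dimmest and the brightest constitutive subunit had a median of -0.08, and the 1248 genes between the lower and the upper quartile of the subunits had a median of -0.13. Hepatocyte markers had a median of -0.16, with 5 of 6 lower, and their summed relative signal was 2292 (F/F) and 2295 (LKO) on chow and 1824 (F/F) and 1568 (LKO) on HFD. The part of brightness or of hepatocyte RNA in the lower subunits was not tested.

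**Figure D1:**
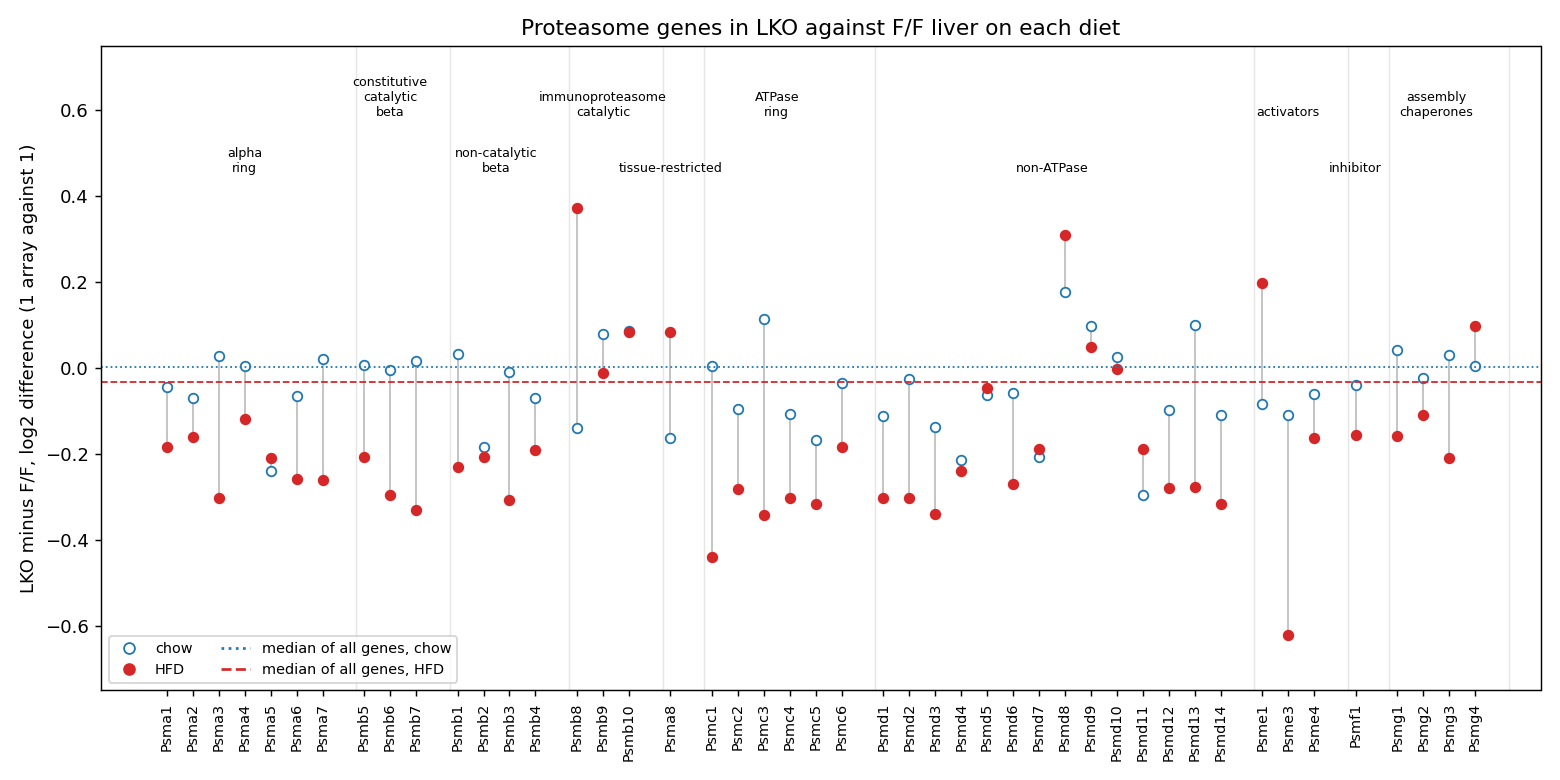
Difference between LKO and F/F liver (log2, vertical axis) for the 46 measured proteasome genes, grouped by role, on chow (open points) and HFD (filled points), each from 1 array against 1. Dotted and dashed lines mark the median of all genes, and on HFD 32 of the 34 constitutive subunits lie below 0, while Psmb8, Psmd8 and Psme1 lie above it and Psme3 is lowest at -0.62.

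The alpha ring (Psma1 to Psma7), which forms the gate of the core, was lower on HFD in LKO for 7 of 7 subunits, from -0.30 for Psma3 to -0.12 for Psma4, with a median of -0.21. Psma3 had relative signals of 76.9 (F/F) and 78.4 (LKO) on chow and 68.9 (F/F) and 55.9 (LKO) on HFD. Psma4 had 70.4, 70.7, 61.3 and 56.5 in the same order. As scaled, both were thus alike on the chow arrays and lowest on LKO HFD. Before scaling, the signals of Psma4 were 15613, 15072, 16127 and 16698 in the same order, highest on LKO HFD. Psma5 was the only alpha subunit lower in LKO on chow by more than the SD between spots (-0.24), and its difference on HFD was similar (-0.21).

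The constitutive catalytic subunits were each nearly equal between the genotypes on chow. Psmb5, the chymotrypsin-like subunit, had relative signals of 21.7 (F/F) and 21.8 (LKO) on chow and 23.6 (F/F) and 20.4 (LKO) on HFD. Psmb6, the caspase-like subunit, had 100.4, 100.1, 97.1 and 79.2. Psmb7, the trypsin-like subunit, had 17.8, 18.0, 17.0 and 13.5. For each of them the LKO HFD array was the lowest as scaled here, and the LKO chow array was the lowest before scaling. The differences of LKO from F/F on HFD were -0.21, -0.29 and -0.33. The non-catalytic beta subunits Psmb1 to Psmb4, which complete the ring, were lower in 4 of 4 cases, from -0.31 for Psmb3 (64.1, 63.7, 54.6 and 44.1) to -0.19 for Psmb4 (77.1, 73.5, 69.6 and 60.9).

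In the 19S cap, the ATPase ring (Psmc1 to Psmc6), which unfolds the substrate, had the lowest class median in LKO on HFD among the constitutive classes, -0.31, with 6 of 6 lower. Psmc1 was the lowest constitutive subunit of all, at -0.44. Its relative signals were 72.2 (F/F) and 72.4 (LKO) on chow and 72.6 (F/F) and 53.5 (LKO) on HFD. As scaled, LKO HFD thus stood apart from 3 nearly equal arrays. Before scaling its signals were 16011 (F/F) and 15444 (LKO) on chow and 19098 (F/F) and 15813 (LKO) on HFD. Psmc6 was the highest of the ring at -0.18 (34.1, 33.3, 27.2 and 23.9), and it was also lower on HFD in F/F (-0.33).

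Of the 14 non-ATPase genes (Psmd1 to Psmd14), which form the lid and the scaffold and include ubiquitin receptors and the deubiquitinase Psmd14, 12 were lower in LKO on HFD, with a median of -0.25. The lowest was Psmd3, a lid subunit, at -0.34 (46.5, 42.3, 45.5 and 35.9). Psmd8, also a lid subunit, went the other way, at 0.31 on HFD and 0.18 on chow. Its relative signals were 12.8 (F/F) and 14.5 (LKO) on chow and 16.6 (F/F) and 20.5 (LKO) on HFD. It was the only constitutive subunit with its highest relative signal on LKO HFD. Psmd8 had 1 of the 2 differences above 0, and the other was 0.05 for Psmd9. Psmd5, Psmd9 and Psmd10 are assembly chaperones of the 19S base rather than parts of the finished particle, a point raised after their values were seen. Without these 3 chaperones, 30 of 31 subunits were lower in LKO on HFD, with a median of -0.27.

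Members with several probes allowed a check between probes of a gene. Members with 1 probe, among them Psmb8, Psmb9, Psmb10, Psme1, Psme3, Psmd8 and Psmc1, had no such check. For the 19 members with more than 1 probe (43 probes in all), the SD between probes of a gene was 0.07 for LKO against F/F on HFD, and for 0 of the 19 did the probes differ in sign. On chow, where the differences were smaller, probes of 7 members differed in sign. The widest gap on HFD was 0.25, between probes of Psmd13. Probes were further apart for HFD against chow, with an SD of 0.10 in F/F, where those of 6 members differed in sign, and of 0.14 in LKO, where those of 2 members did and the widest gap was 0.56 for Psma8.

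The immunoproteasome subunits did not share the lower values on HFD in LKO. Psmb8, the chymotrypsin-like subunit of the immunoproteasome, had relative signals of 4.85 (F/F) and 4.41 (LKO) on chow and 5.14 (F/F) and 6.65 (LKO) on HFD. It was thus highest on LKO HFD, with a difference of 0.37 from F/F on HFD (1.29-fold) and of -0.14 on chow. The difference of HFD from chow was 0.08 in F/F and 0.59 in LKO, at 1.51-fold just past the limit. Psmb9, which takes the place of Psmb6 and lacks its caspase-like activity, had 4.68 and 4.94 on the chow arrays and 9.64 and 9.56 on the HFD arrays. Its levels went with the diet and not with the genotype, with a difference of HFD from chow of 1.04 in F/F (2.06-fold) and 0.95 in LKO (1.93-fold), and of LKO from F/F of 0.08 on chow and -0.01 on HFD. Psmb10, the trypsin-like subunit, had 22.2, 23.5, 25.9 and 27.4, higher on HFD by 0.22 in both genotypes and in LKO by 0.09 on chow and 0.08 on HFD, less than the SD between spots.

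Set against the constitutive subunits at the same arrays, the immunoproteasome subunits were relatively higher on HFD. The mean difference of Psmb8, Psmb9 and Psmb10 minus that of Psmb5, Psmb6 and Psmb7 was 0.00 for LKO against F/F on chow and 0.43 on HFD. It was 0.45 for HFD against chow in F/F and 0.87 in LKO. A factor per array cancels in this contrast, and under the 4 alternatives of processing that could change it (normexp, quantile normalization, the mean of probes and the dimmest probe) it ranged from 0.40 to 0.43 for LKO against F/F on HFD. The mean of probes and the dimmest probe act here on Psmb6 alone, since each other catalytic subunit has 1 probe. The pairs contributed differently. For LKO against F/F on HFD, Psmb8 minus Psmb5 was 0.58, Psmb9 minus Psmb6 was 0.28, and Psmb10 minus Psmb7 was 0.42, and in the latter pairs most of the gap came from the lower constitutive subunit. For HFD against chow in F/F the values were -0.04, 1.09 and 0.28, so that Psmb9 and its partner made most of that contrast. The 4 comparisons share arrays and are not independent of each other.

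**Figure D2:**
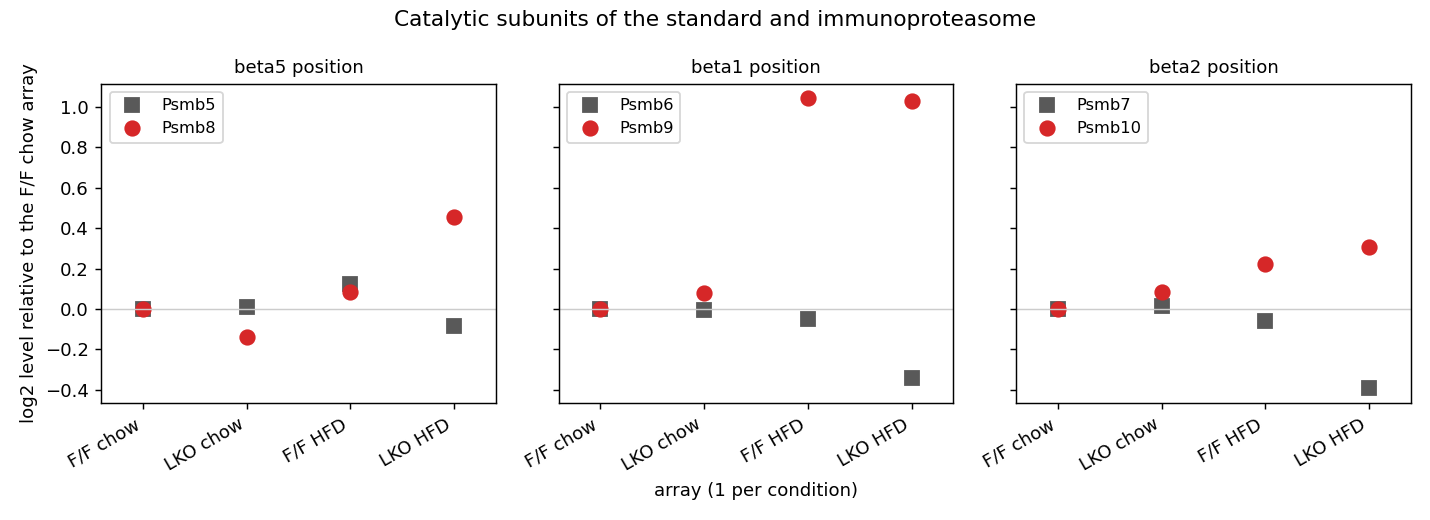
Level of each constitutive catalytic subunit (squares) and of the immunoproteasome subunit that takes its place (circles) on the 4 arrays, as log2 relative to the F/F chow array, 1 array per condition. Psmb9 is about 1 log2 unit higher on both HFD arrays, Psmb8 stands out on LKO HFD only, and Psmb5, Psmb6 and Psmb7 are lowest on LKO HFD as scaled here.

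Markers of leukocytes also differed between the arrays. Pan-leukocyte markers (Ptprc, Laptm5, Coro1a and Cd53) had a median difference of -0.06 for LKO against F/F on chow, 0.68 on HFD, 0.81 for HFD against chow in F/F and 1.49 in LKO. All 4 were at least 1.5-fold higher in LKO on HFD, and their summed relative signal was 2.94 (F/F) and 2.80 (LKO) on chow and 4.83 (F/F) and 7.81 (LKO) on HFD. Macrophage markers had medians of 0.02, 0.55, 0.45 and 1.03 in these comparisons, with 6 of 6 higher on HFD in LKO than in F/F. T and NK cell markers had -0.31, 0.98, -0.10 and 1.55, and their summed relative signal was 2.87 (F/F) and 2.52 (LKO) on chow and 2.91 (F/F) and 4.80 (LKO) on HFD. Of the 6 genes, Cd8a was well above background on 1 array. The summed signals of T and NK cell, pan-leukocyte and B cell markers were lowest on LKO chow and highest on LKO HFD. Those of B cells were 0.43 (F/F) and 0.42 (LKO) on chow and 0.64 (F/F) and 0.82 (LKO) on HFD. Macrophage markers were lowest on F/F chow (53.2, against 53.8 on LKO chow) and highest on LKO HFD. Neutrophil markers were lowest on LKO chow and highest on F/F HFD. Psmb8 was lowest on LKO chow and highest on LKO HFD, and Psmb9 was at neither of these ends. The chow arrays were close for several lists, and these orders of 4 single arrays single out no list. The T and NK genes were not uniform. With HFD against chow in LKO, 5 of the 6 had values above 0 (1 of the 6 values a bound), and Cd3e stood at -0.26. In F/F, 2 of the 5 with a value were above 0, and Cd3e had the lowest value, -0.44. The part of leukocyte RNA in the immunoproteasome values was not tested.

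Genes of the interferon gamma response, fixed as a list of receptors, signal transducers and targets, differed between the diets in direction. In LKO against F/F on chow, 11 of 12 measured genes were lower, beside 49.3% of all genes. Their median was -0.41, and 2 of them were at least 1.5-fold lower (3.46% of all genes). On HFD, 12 of 13 were higher (Ifng only as a bound), beside 7132 of all 15528 genes. The median of the list was 0.25, and 0 were at least 1.5-fold apart. Irf1, a transcription factor of immunoproteasome genes in interferon-treated cells, was -0.50 on chow and 0.53 on HFD. The GTPase Gbp2 was -0.38 and 0.52. Ifng itself was well above background on 1 array, LKO HFD, with a signal of 10.4, and Ido1 on none.

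With HFD against chow, the interferon gamma list had medians of 0.43 in F/F and 0.78 in LKO. The chemokine Cxcl9 was higher by 0.77 and 1.53 and Gbp2 by 0.95 and 1.85, and Irf1 by contrast was -0.97 in F/F and 0.05 in LKO. Psmb9, with 1.04 and 0.95, had nearly the same value in both genotypes, which neither Cxcl9 nor Gbp2 had. The receptor gene Ifngr2 of the list was also alike in both, at 0.39 and 0.45.

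Genes of MHC class I presentation as a whole were near 0, with medians of 0.03 and -0.06 for LKO against F/F on chow and HFD, and 0.02 and -0.08 for HFD against chow in F/F and LKO, of which the last was 0.46 with quantile normalization. Within the list, Tap1, the neighbour of Psmb9, was higher on HFD by 0.82 in F/F and 0.90 in LKO, and it was the only one of the 11 genes past 1.5-fold in either genotype. For LKO against F/F, Tap1 was -0.26 on chow and -0.19 on HFD. Tap2 was higher on HFD by 0.50 and 0.51, and Psmb8, which lies between Tap1 and Tap2, by 0.08 and 0.59. The neighbours Psmb9, Tap1 and Tap2 thus had diet differences of like size in both genotypes, and Psmb8 did not. The heavy chain H2-K1 (-0.06 and -0.08) and the light chain B2m (-0.04 and -0.05) differed with the diet by less than the SD between spots. The heavy chain H2-D1 was 0.09 in F/F and 0.23 in LKO, the latter of a size with Psmb10 (0.22). The chaperones of the endoplasmic reticulum that load class I, Calr (-0.49) and Pdia3 (-0.31), were lower in LKO on HFD, whereas Tapbp was 0.27.

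**Figure D3:**
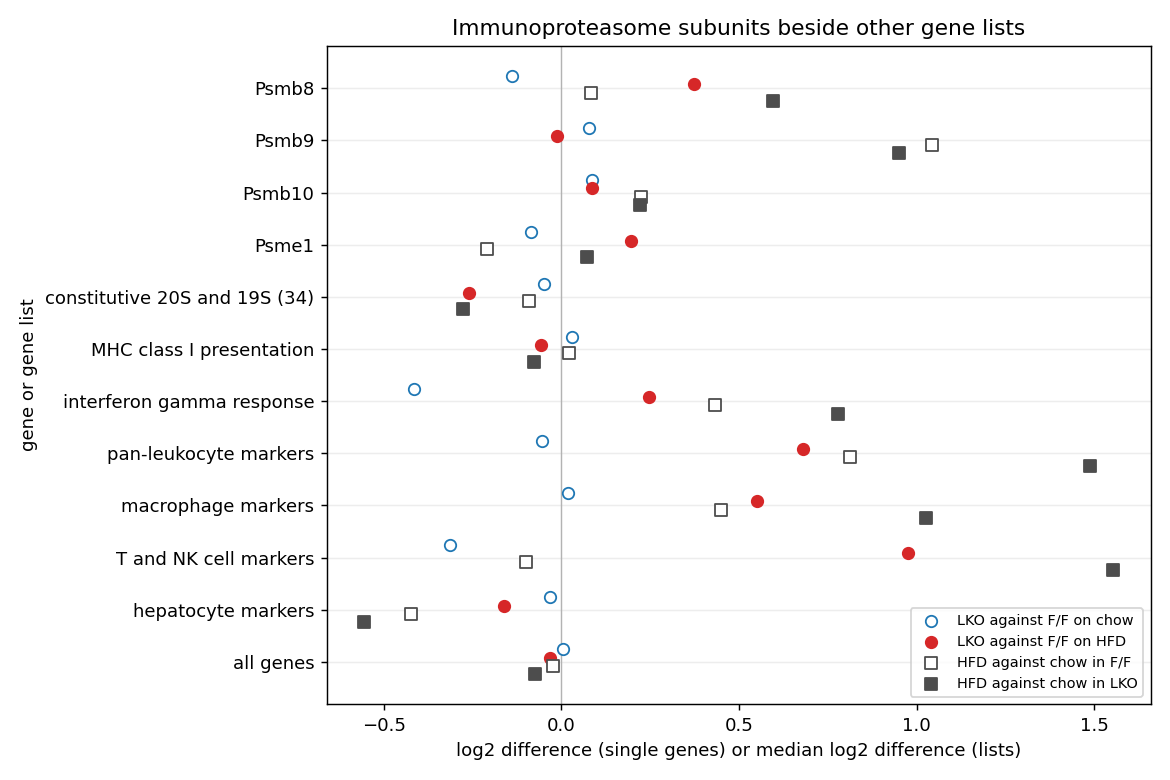
Differences (log2, horizontal axis) of Psmb8, Psmb9, Psmb10 and Psme1 beside the median differences of gene lists, for the 4 comparisons, each of 1 array against 1. Points of a line are offset vertically for legibility. Pan-leukocyte markers lie above 0 in all comparisons but LKO against F/F on chow (-0.06), macrophage markers lie above 0 in all 4 (0.02 in that one), and the constitutive subunits lie below 0 in all 4 as scaled here (without scaling, above 0 for HFD against chow).

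The activators, rings that bind the end of the core in place of the 19S cap, went in different directions. Psme1, which forms an interferon-inducible ring with Psme2, had relative signals of 27.5 (F/F) and 25.9 (LKO) on chow and 23.8 (F/F) and 27.2 (LKO) on HFD. It was 0.20 in LKO against F/F on HFD and -0.08 on chow, and -0.21 and 0.07 with HFD against chow in F/F and LKO. Against the median of the constitutive subunits, Psme1 stood 0.46 higher in LKO on HFD. Psme2 was not analysed here.

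Psme3, the nuclear activator of ubiquitin-independent degradation, had the largest difference of all 46 members in the LKO and F/F comparison on HFD and in HFD against chow in LKO. Its relative signals were 83.4 (F/F) and 77.3 (LKO) on chow and 44.2 (F/F) and 28.8 (LKO) on HFD. Both HFD arrays were thus below both chow arrays, and LKO HFD was the lowest. The difference of HFD from chow was -0.91 in F/F (1.89-fold lower) and -1.43 in LKO (2.69-fold lower), and that of LKO from F/F was -0.62 on HFD (1.54-fold lower) and -0.11 on chow. The difference of LKO from F/F on HFD lay close to the limit of 1.5-fold and was inside it with quantile normalization (-0.53) and with a percentile over detected probes alone (-0.58). Psme3 is represented by 1 probe. Psme4, the large activator of the nucleus and the testis, stood at -0.27 and -0.37 with HFD against chow in F/F and LKO, with relative signals from 20.9 on F/F chow to 15.5 on LKO HFD.

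Psmf1, an inhibitor of the core, had 2.33, 2.26, 2.91 and 2.61, higher on HFD by 0.32 in F/F and 0.20 in LKO. For its other probe these differences were 0.12 and -0.06, so that the direction in LKO turned with the probe. The chaperones Psmg1 to Psmg4, which guide assembly of the alpha ring, had a median of 0.02 in LKO against F/F on chow and -0.13 on HFD. Psmg4 was the highest of them on HFD at 0.10 (1.41, 1.41, 1.69 and 1.81), and Psmg3 the lowest at -0.21 (5.12, 5.23, 5.40 and 4.67). Psma8, the alpha subunit of the testis, was measured near the low end of the members, with 0.42, 0.38, 0.39 and 0.41, and for this brightest probe the differences did not exceed 0.16 in size in LKO against F/F. The other probe of Psma8, well above background on 3 arrays, was -0.20 on chow and 0.29 on HFD.

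With HFD against chow, the median of the constitutive subunits was -0.09 in F/F, with 27 of 34 lower, and -0.28 in LKO, with 32 of 34 lower. The medians of all genes were -0.02 and -0.07, with 52.2% lower in F/F and 56.5% lower in LKO. The 1248 genes between the lower and the upper quartile of the subunits in brightness had medians of -0.05 and -0.20. With quantile normalization the constitutive medians were -0.01 in F/F and -0.10 in LKO. Among the constitutive subunits the highest were Psmd8, at 0.37 and 0.50, and the assembly chaperone Psmd10, at 0.32 and 0.29, the same pair in both genotypes. In F/F the lowest was Psmc6 (-0.33), and in LKO it was Psmb3 (-0.53). The LKO minus F/F difference on HFD was lower than that on chow for 29 of the 34 and for 8148 of 14619 genes. The median change was -0.19 for the 34 against -0.05 over those genes. The same 1248 genes of like brightness had LKO minus F/F medians of 0.03 on chow and -0.13 on HFD. Among the subunits the change was lowest for Psmc3, an ATPase, at -0.46 and highest for Psmd8 at 0.13. Without scaling the median change of the subunits was 0.04, since the arrays differ in their 75th percentile. With quantile normalization it was -0.08.

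**Figure D4:**
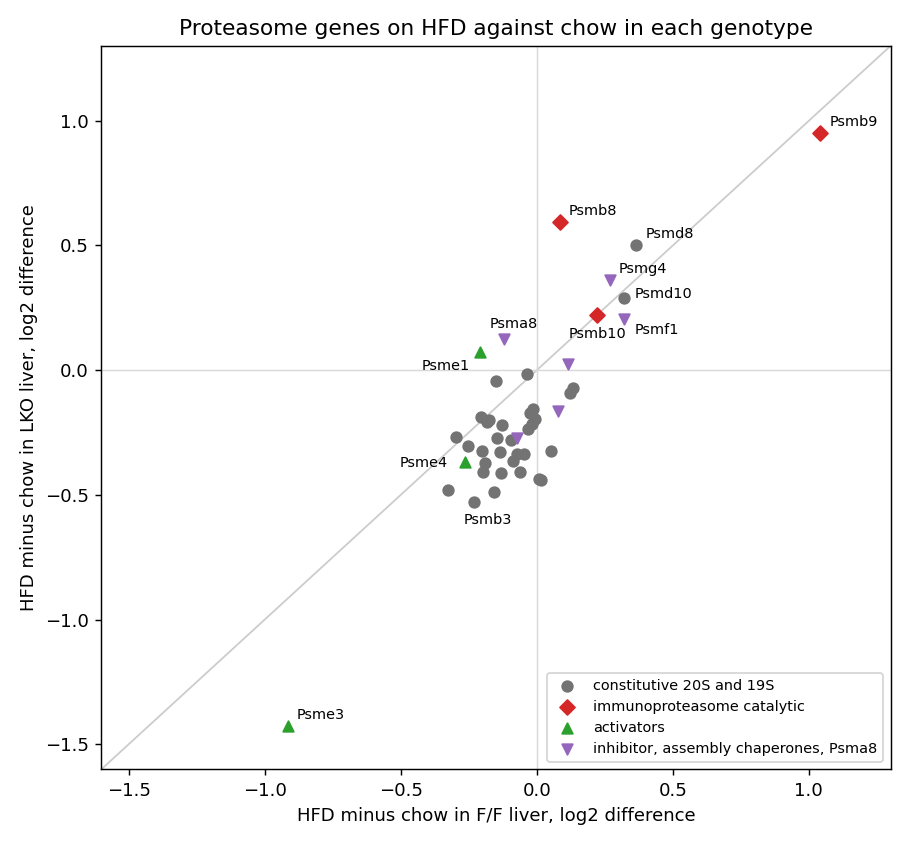
Difference of HFD from chow (log2) in F/F liver (horizontal axis) and in LKO liver (vertical axis) for the 46 measured proteasome genes, each from 1 array against 1, with the line of equal difference in grey. Most constitutive subunits lie below the line and below 0 in LKO, Psmb9 (1.04 and 0.95) and Psme3 (-0.91 and -1.43) lie at opposite ends, and Psmb8 (0.08 and 0.59) lies above the line.

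Of 16 regulators and partners of the proteasome, 11 were lower in LKO against F/F on each diet, or 68.8%, beside 49.3% of all genes on chow and 54.1% on HFD. Their median was -0.06 on chow and -0.17 on HFD, and 0 were at least 1.5-fold apart on either diet. Nfe2l1, the factor that drives transcription of proteasome genes when the particle is inhibited, was -0.17, and Ddi2, the protease that activates it, was -0.33. Pomp, the maturation factor of the core, was -0.26, and Adrm1, a ubiquitin receptor of the cap, was -0.38. Nfe2l2, the factor of the oxidative stress response, was 0.13, and on HFD against chow it was 0.65 in F/F and 0.54 in LKO.

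Ubiquitin genes and the enzymes that activate and carry ubiquitin had a median of -0.03 in LKO against F/F on HFD, with 7 of 12 lower, which became 0.13 with quantile normalization. Ubb (-0.07) and Rps27a (0.07), which encode ubiquitin, were near 0, and Uba1, the main activating enzyme, was -0.24. Ube2l6, the conjugating enzyme of the ubiquitin-like protein ISG15, was higher on HFD by 0.55 in F/F and 0.21 in LKO.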

How the data were processed

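Liver RNA of 4 conditions was measured on 4 one-colour Agilent mouse arrays, scanned on 1 slide. Per spot, the authors deposited an intensity from Agilent Feature Extraction 12.0.3.1, background-subtracted and detrended, with flags. They also deposited a table of values, an intensity equal to the processed signal times 1 factor per array (2.60 for F/F and 2.63 for LKO on chow, 2.41 and 2.10 on HFD), with medians of 34.5, 33.2, 36.1 and 36.0. It was linear and uncentred, and the origin of its factors is not given in the sources used here.

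From the deposited intensity, log2 minus the 75th percentile of the 59305 spots that are not controls was computed. Spots of a probe were averaged without outlier spots, accessions were matched to symbols through RefSeq (GRCm38.p6; 33767 of 56605 probes), and the probe with the highest mean stood for a gene. Where neither array of a comparison measured a gene above background it had no value. Where 1 did, it had a bound only if that level exceeded those of the other array (the gene's own and the lowest measured). Otherwise it had no value. No test was made, since each condition had 1 array. Members and lists were chosen with earlier results of these data known. Signals of all arrays are given for the catalytic subunits, the activator Psme1, the highest and lowest member of each class in LKO against F/F on HFD and members at least 1.5-fold apart there, and further genes are named only where a sentence on a list turns on them. Alternatives were normexp correction (offset 50, on median signals, limma 3.58.1 in R 4.3.3), quantile normalization, 2 other percentiles, the deposited table, other probe and background rules, and thresholds of 2-fold and of 25% above a ratio of 1. Python 3.11.15, pandas 2.3.3, numpy 2.4.6 and matplotlib 3.10.9 were used. The steps were tested on simulated data. Some genes of the lists are not reported here by name.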

Additional observations from a re-analysis of the deposited data

Results flagged for a closer look

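Psmb8 differed in direction between the diets, with LKO minus F/F at -0.14 on chow and 0.37 on HFD (log2). Psmc3, an ATPase of the cap, was 0.11 on chow and -0.34 on HFD, and Psmd13, a lid subunit, was 0.10 on chow and -0.28 on HFD. The 2 other probes of Psmc3 were -0.05 and 0.00 on chow, and the other probe of Psmd13 was 0.14 on chow and -0.03 on HFD. The median of the interferon gamma response was -0.41 on chow and 0.25 on HFD, that of T and NK cell markers -0.31 and 0.98, and that of exocrine pancreas genes -1.43 and 1.94.

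Between the genotypes, HFD against chow differed in direction for the brightest probe of Psma8, at -0.12 in F/F and 0.12 in LKO, for the median of T and NK cell markers, at -0.10 and 1.55, and for that of exocrine pancreas genes, at -0.76 and 2.61. The other probe of Psma8 was 0.20 in F/F and 0.69 in LKO, with no change of direction. None of these differences was tested, because each value comes from 1 array against 1, and the list of T and NK cells has 5 or 6 genes with a value.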

How the results depend on the processing

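No paired analysis was possible because each condition had 1 array, and for the same reason no replicate could be left out. Of 624 values recomputed for 66 results, 554 moved by less than the SD between spots (counts by at most 1.5 times). No value at least 1.5-fold apart changed sign. The immunoproteasome contrast cannot change, by construction, under 6 of its 10 alternatives (2 other percentiles, the deposited table, no scaling and both background rules), and with the other 4 it had ranges of 0.40 to 0.43 for LKO against F/F on HFD, 0.41 to 0.46 for HFD against chow in F/F and 0.78 to 0.89 in LKO. Of those 4, the mean of probes and the dimmest probe could change it through Psmb6 alone. The median of the constitutive subunits relative to all genes ranged from -0.23 to -0.14 for LKO against F/F on HFD, from -0.20 to -0.06 for HFD against chow in LKO (-0.095 with normexp, -0.062 without a filter) and from -0.07 to 0.03 in F/F, where it was 0.030 without a filter. The alternatives without scaling, with the dimmest probe and without Psmd5, Psmd9 and Psmd10 were chosen after seeing the data. Signal over background limits little here, since 46 members were well above it on every array.

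With the deposited table, whose factors shifted the median of all genes by 0.14 in F/F and 0.15 in LKO for HFD against chow, the class medians for HFD against chow in F/F and LKO were 0.043 and -0.13 for the constitutive subunits, 0.00052 and -0.18 for the alpha ring, 0.087 and -0.19 for the constitutive catalytic, -0.026 and -0.16 for the non-catalytic beta, 0.36 and 0.74 for the immunoproteasome, 0.11 and -0.21 for the ATPase, 0.073 and -0.056 for the non-ATPase subunits, -0.13 and -0.22 for the activators and 0.23 and 0.079 for the assembly chaperones. Those of the lists were 0.16 and 0.070 (MHC class I), 0.57 and 0.88 (interferon gamma), -0.036 and -0.095 (control and partners) and 0.085 and -0.051 (ubiquitin). By construction, these shifts follow from the factors.

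With quantile normalization, the medians for HFD against chow in LKO were -0.10 for the constitutive subunits, -0.10 for the alpha ring, -0.018 for the constitutive catalytic, -0.16 for the non-catalytic beta, 0.70 for the immunoproteasome, -0.14 for the ATPase and -0.018 for the non-ATPase subunits, -0.19 for the activators, 0.46 for MHC class I, -0.11 for control and partners and 0.19 for ubiquitin. In F/F they were -0.042 for the alpha ring, 0.090 for the constitutive catalytic subunits, 0.32 for the immunoproteasome, 0.19 for MHC class I and 0.087 for ubiquitin. For LKO against F/F on HFD, they were -0.16 for the constitutive catalytic subunits and 0.13 for ubiquitin, and the constitutive change between the diets was -0.083. With normexp, the medians for HFD against chow in LKO were -0.25 for the ATPase, -0.20 for the constitutive catalytic and -0.20 for the non-catalytic beta subunits, 0.020 for MHC class I and -0.095 for ubiquitin. Without scaling, the constitutive medians were -0.092 for LKO against F/F on HFD and 0.15 and 0.19 for HFD against chow in F/F and LKO, and the change between the diets was 0.035. With the dimmest probe, the medians for HFD against chow in LKO were -0.53 for the activators and 0.89 for interferon gamma, and without a filter the latter was 0.68. The cause was not tested for quantile normalization, normexp and the dimmest probe.

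The count of members at least 1.5-fold lower in LKO against F/F on HFD (1 in the report) was 0 with quantile normalization and 0 with a percentile over detected probes alone. Members at least 1.5-fold higher with HFD in LKO (2 in the report) were 3 with quantile normalization, 3 with the deposited table (Psmd8 in both) and 3 with the dimmest probe (Psma8). Without a filter, 2 members were lower with HFD against chow in F/F and 2 in LKO, since Psmb11 below background was then counted. With the limit 25% above a ratio of 1, 1 member was higher and 5 lower in LKO against F/F on HFD, 2 higher and 2 lower with HFD in F/F, and 4 higher and 17 lower in LKO. At 2-fold, 0 were lower in LKO against F/F on HFD, 0 lower with HFD in F/F and 0 higher with HFD in LKO. Of 184 member differences, 92 moved by more than the SD between spots with the deposited table, 56 with quantile normalization, 25 with normexp, 25 with the dimmest probe and 12 with the mean of probes. The 2 other percentiles and both background rules moved none. Member differences were not recomputed without scaling. That alternative moved the median of all genes by 0.17 in LKO against F/F on HFD. For HFD against chow it moved that median by 0.25 in F/F and 0.46 in LKO.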

Other observations

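Markers of further cell types were measured on the same arrays. For LKO against F/F on chow and on HFD, the medians were -0.04 and 0.37 for B cell markers (3 genes with a value) and 0.38 and 0.44 for stellate cell markers (4 of 4 higher on both diets). Of the neutrophil markers, 4 of 4 were lower in LKO on chow and on HFD, and the HFD median was -0.61. They thus went the other way from the pan-leukocyte and macrophage markers on HFD. S100a8, which codes for a calcium-binding protein of neutrophils, had signals of 957 (F/F) and 456 (LKO) on chow and 1159 (F/F) and 815 (LKO) on HFD, so that LKO was lower on both diets. Ly6g, the marker used to define mouse neutrophils, was at -0.04 on chow and -0.19 on HFD. None of these differences was tested.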
